A study of Mus musculus with 6 samples.

Results

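The genes described here make melanin or build the melanosome, the organelle in which pigment cells make and store it. They are Dct, Tyr, Tyrp1, Pmel, Slc45a2, Oca2, Gpr143, Mlana, Mitf and Slc24a5, and every probe that the array annotation assigns to one of these 10 symbols alone was taken, which gave 19 of the 45281 probes on the array. They are 10 of the 19057 genes that the annotation names by a single symbol. RNA of the central retina was measured on single-colour Illumina bead arrays in untreated rd1/rd1 mice at 8 months (3 samples) and at 2 months of age (3 samples). Both ages carry rd1, a mutation in the rod phosphodiesterase gene Pde6b after which rods and then cones degenerate, and no sample without it was analysed here. Between 3 and 6 punches with a diameter of 1.5 mm went into a sample, and the design calls the samples of an age independent. The labels used here do not give the background strain, coat colour, sex or number of animals per sample, so p-values measure the spread between these pools. By RefSeq (GRCm38.p6), Dct lies on chromosome 14, Tyr and Oca2 on 7, Tyrp1 on 4, Pmel on 10, Mlana on 19, Slc45a2 on 15, Slc24a5 on 2, Mitf on 6 and Gpr143 on X.

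Melanin is made from tyrosine in steps that begin with the enzyme tyrosinase and go on through its relatives Dct and Tyrp1, on a scaffold of Pmel fibrils, while transporters set the acidity and ion content of the melanosome. The neural retina makes no melanin. In the eye its makers are the retinal pigment epithelium, a single cell layer that lies against the photoreceptors and feeds them, the pigmented epithelia of the ciliary body and iris, and the melanocytes of the choroid and iris stroma. Mitf, a basic helix-loop-helix factor, drives many of these genes by binding E-box sequences in their promoters, and in the pigment epithelium Otx2 acts beside it.

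The promoter windows of Dct, Tyr and Tyrp1 are shown because they share an element beyond the E-box core itself. They run from 250 bases before to 50 after the start site, are given 5′ to 3′ on the gene's strand, and come from RefSeq (GRCm38.p6). Capitals mark CATGTG, or CACATG where it lies on the other strand. The windows are chr14:118052197-118052496 (minus strand) for Dct, chr7:87493463-87493762 (minus strand) for Tyr and chr4:80833963-80834262 (plus strand) for Tyrp1.
Dct: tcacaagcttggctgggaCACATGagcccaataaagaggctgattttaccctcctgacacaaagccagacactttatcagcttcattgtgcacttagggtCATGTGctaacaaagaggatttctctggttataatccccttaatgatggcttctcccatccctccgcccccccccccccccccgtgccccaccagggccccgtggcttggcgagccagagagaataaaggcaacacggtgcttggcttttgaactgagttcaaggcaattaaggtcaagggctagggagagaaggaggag
Tyr: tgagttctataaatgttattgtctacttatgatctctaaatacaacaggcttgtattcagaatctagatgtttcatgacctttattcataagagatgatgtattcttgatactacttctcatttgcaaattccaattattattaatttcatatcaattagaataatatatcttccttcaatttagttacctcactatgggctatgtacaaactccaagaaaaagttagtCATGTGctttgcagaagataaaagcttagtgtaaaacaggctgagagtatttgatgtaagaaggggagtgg
Tyrp1: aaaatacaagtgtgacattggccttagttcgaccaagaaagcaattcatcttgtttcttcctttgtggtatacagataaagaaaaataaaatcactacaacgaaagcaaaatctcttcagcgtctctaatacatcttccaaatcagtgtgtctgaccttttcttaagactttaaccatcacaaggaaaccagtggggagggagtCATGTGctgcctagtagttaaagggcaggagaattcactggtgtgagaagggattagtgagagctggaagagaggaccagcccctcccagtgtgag

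The core CATGTG, searched on both strands, lay in the windows of 5 of the 6 genes of the group with a window in the table (Dct, Tyr, Tyrp1, Oca2 and Slc24a5), while 15.9% of all 27025 genes had it. In Oca2 and Slc24a5 it lies on the other strand, in the stretches chr7:56239561-56239590 and chr2:125068102-125068131 (both plus strand).
Oca2: ttgagcttgctaCACATGgctggaattttc
Slc24a5: aaggagactgctCACATGattcagcataag
The longer run GTCATGTGCT was defined after the windows had been read, as the longest run around the core shared by Dct, Tyr and Tyrp1. Its presence in these genes is therefore fixed by that choice and is no result. Among all 27025 genes, 42 (0.155%) had the run. It begins 152 bases before the start site in Dct, 23 before it in Tyr and 48 before it in Tyrp1. CACGTG, another E-box form, was in none of the 6 genes and in 8.09% of all genes. TAATCC, the core that Otx2 binds, was in Dct, Mitf and Tyrp1 and in 8.14% of all genes. The 3 windows of Mitf held neither E-box form. A match describes letters and was not tested as a binding site.

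Values are given as deposited, in log2 units, so that 1 unit is a doubling of signal. The median of each array was 7.19, a level close to background at which differences are compressed. A probe was tested when it exceeded the median of its own array on at least 3 of the 6 arrays, which kept 22458 probes, 13 of the 19 pigment gene probes among them. Of these 13, 8 exceeded the median on all 6 arrays, and 1, the probe of Tyr, passed through 2 month arrays alone. Some markers of the neural retina were bright and others dim. Slc32a1 lay at 13.05 to 13.07 at 8 months and 12.91 to 12.98 at 2 months. Rlbp1 lay at 12.43 to 12.89 and 12.74 to 12.88. By contrast, Glul lay at 7.96 to 8.27 at 8 months and 8.33 to 8.36 at 2 months. Pax6 lay at 7.46 to 7.59 and 7.46 to 7.54, and Snap25 and Nefl stayed below the filter. Which samples stood apart from the others of their age depended on the list of genes. In the lists of skeletal muscle and red blood cell genes, 2 month replicate 2 was the highest of the 6 samples. In the lists of pigment epithelium and photoreceptor genes, 8 month replicate 3 was the lowest, with 14 of 17 and 9 of 9 genes below the mean of the other 8 month samples. The lists shared both traits in part. Pigment epithelium and photoreceptor genes were also highest in 2 month replicate 2, and pigment and muscle genes also lowest in 8 month replicate 3. Photoreceptor genes were also low in 2 month replicate 3, with 8 of 9 below the mean of the other 2 month samples. Of 11 lens genes, 10 lay above the mean of the other 8 month samples in 8 month replicate 1. In 2 month replicate 3, 10 of the 11 lay above the mean of the other 2 month samples. Replicate numbers are those of the sample titles, while the descriptions number the 2 month samples 1, 1 and 2.

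Dct, dopachrome tautomerase, the second enzyme of the pathway, had values of 10.41, 10.23 and 9.13 in 8 month replicates 1, 2 and 3, against 10.44, 12.28 and 10.95 in 2 month replicates 1, 2 and 3. The ages did not overlap, but 8 month replicate 1 and 2 month replicate 1 were nearly level, and replicate 2 stood far above the other 2 month samples. The change, 8 months minus 2 months, was −1.30 (SE 0.507, 95% interval −2.49 to −0.11, n = 3 per age), a level 2.46-fold lower at 8 months, with an adjusted p of 0.50 (limma, Benjamini-Hochberg over 22458 probes). At a second Dct probe the change was −1.37 (SE 0.625), and there the ages overlapped, with 8 month replicate 1 at 9.73 and 2 month replicate 1 at 9.46.

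Tyrp1, which oxidises an indole intermediate of black-brown eumelanin in the mouse, had values of 8.06, 7.41 and 7.44 at 8 months and of 8.03, 9.56 and 8.27 at 2 months. The ages overlapped, since 8 month replicate 1 lay above 2 month replicate 1, and 2 month replicate 2 was again the highest sample. The change was −0.98 (SE 0.390, 95% interval −1.90 to −0.07, adjusted p = 0.51 by limma). Its other probes, close to the array median in most samples, had changes of −0.21 (SE 0.103) and −0.15 (SE 0.0646) and followed the same sample pattern, with Pearson's r of 0.98 and 1.00 with the brightest probe over the 6 samples.

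Tyr, tyrosinase, the rate-limiting enzyme, was close to background. Its values were 7.16, 7.18 and 7.16 at 8 months and 7.24, 7.24 and 7.20 at 2 months. The ages did not overlap, and the difference, 8 months minus 2 months, was −0.06 (SE 0.0402, 95% interval −0.15 to 0.04), for which limma gave an adjusted p of 0.77. None of the 8 month arrays had Tyr above the array median, and the value ran from −0.07 to −0.05 when each sample was left out.

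**Figure D1:**
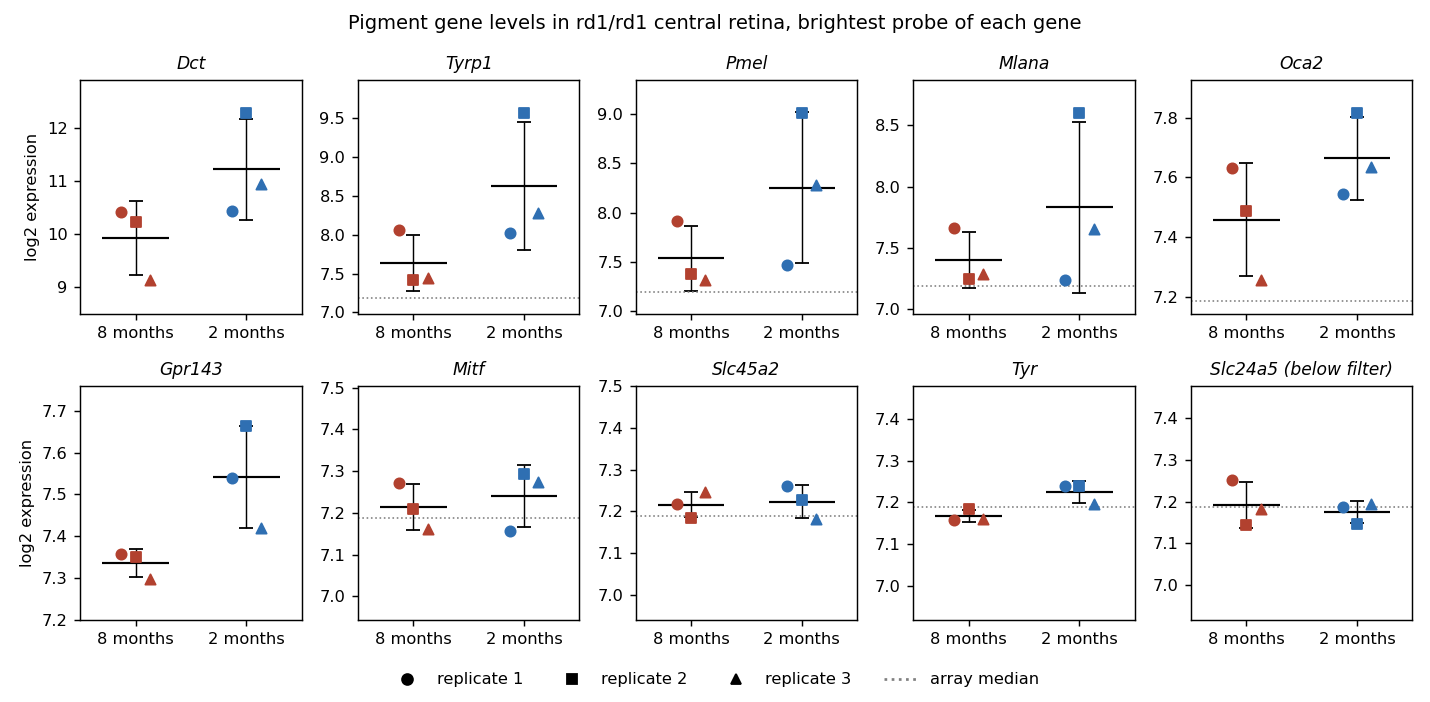
Log2 expression of the brightest probe of each of the 10 pigment genes (vertical axes, each with its own range) in the 8 month and 2 month samples. Points are samples, bars are the mean ± SD of 3 samples and the dotted line is the array median of 7.19. In 8 of the 9 genes that passed the filter, 2 month replicate 2 (blue square) is the highest sample, though by only 0.0009 in Tyr and 0.02 in Mitf.

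Pmel, the protein that forms the fibrils on which melanin is laid down, had values of 7.92, 7.38 and 7.31 at 8 months and 7.47, 9.01 and 8.28 at 2 months. The ages overlapped, with 8 month replicate 1 above 2 month replicate 1. The change was −0.72 (SE 0.363, 95% interval −1.57 to 0.14, adjusted p = 0.65 by limma), and the second probe, with a change of −0.35 (SE 0.182), put the 6 samples in the same order (rho = 1).

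Mlana, a small melanosome membrane protein that binds Pmel, had values of 7.66, 7.24 and 7.29 at 8 months against 7.23, 8.60 and 7.65 at 2 months. Its difference between ages rested on 1 sample: 2 month replicate 1 was the lowest of all 6, and 2 month replicate 2 lay 0.94 above the next. The difference between ages, −0.43 (SE 0.319, 95% interval −1.18 to 0.32) with an adjusted p of 0.78 in limma, became −0.05 without 2 month replicate 2.

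Among the membrane proteins, Gpr143, a receptor inside pigment cells that controls melanosome size, had values of 7.36, 7.35 and 7.30 at 8 months against 7.54, 7.66 and 7.42 at 2 months. All 8 month values lay below all 2 month values. The change of −0.21 (SE 0.0665, 95% interval −0.36 to −0.05) was small and had the smallest adjusted p of the group, 0.39 by limma. It ran from −0.27 to −0.14 when each sample was left out. Its other probe stayed below the filter, at 7.09 to 7.13 at 8 months and 7.09 to 7.15 at 2 months.

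Oca2, a chloride channel-like protein that raises melanosome pH, had values of 7.63, 7.49 and 7.26 at 8 months and 7.54, 7.81 and 7.64 at 2 months. The ages overlapped. The change was −0.21 (SE 0.108, 95% interval −0.46 to 0.05, adjusted p = 0.67 by limma), and it became −0.10 without 8 month replicate 3, the lowest sample.

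The other transporters could not be followed. Slc45a2, which also acts on melanosome pH, had 4 probes at 7.05 to 7.25 at 8 months and 7.08 to 7.26 at 2 months, and the only one that passed the filter had a change of −0.01 (SE 0.0438). Slc24a5, a cation exchanger of the pigment cell, stayed below the filter, at 7.25, 7.14 and 7.18 at 8 months and 7.19, 7.15 and 7.20 at 2 months. Mitf, the factor upstream of the group, was also dim, with 7.27, 7.21 and 7.16 at 8 months against 7.16, 7.29 and 7.27 at 2 months at its brighter probe. Its change was −0.03 (SE 0.0551, 95% interval −0.16 to 0.10, adjusted p = 0.95 by limma), and its other probe lay at 7.10 to 7.18 at 8 months and 7.12 to 7.15 at 2 months.

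None of the 13 tested probes was called at an adjusted p below 0.05 (limma), where 11 of 22458 tested probes (0.049%) were called, 8 higher (0.0356%) and 3 lower (0.0134%) at 8 months. Counted by each gene's brightest tested probe, with the same adjusted p, 9 of 12046 genes (0.0747%) were called, none of them a pigment gene. The changes of all 13 lay below 0, as did those of 48.7% of all tested probes, and 9 of the 13 lay below −0.2, against 3.08%. Dct, Tyrp1 and Pmel enter that count of 9 with more than 1 probe each, and probes of a gene varied together (Pearson's r of 0.98 or more). A dim Tyrp1 probe among the 9, at −0.21, exceeded the array median on 3 arrays at 2 months but on 1 at 8 months. At an unadjusted p below 0.05 there were 3 of 13, the brightest probes of Dct, Tyrp1 and Gpr143, against 9.06% of all tested probes. All 8 month values lay below all 2 month values at 4 of the 13, the Tyr probe and 1 probe each of Dct, Gpr143 and Tyrp1, against 6.61% of all tested probes, and the reverse held at none, against 7.08%. The Tyr probe had passed the filter only through the age at which it was higher, and without it the count was 3 of 12. The Tyrp1 probe among these 3 was dim. It exceeded the array median on 3 arrays at 2 months but on 1 at 8 months, so the filter favoured it too. With no filter the count was 4 of 19, against 5.72% of all probes on the array, and the reverse held at 0 of 19, against 5.92%. Over all 19 probes, with no filter, 15 had changes below 0, against 49.3% of all probes on the array, and their median change was −0.15, against 0.001 over all probes. Members share their samples, so these counts describe 1 set of pools rather than independent results. In pooled tissue, fewer pigment cells and less RNA per pigment cell cannot be told apart.

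**Figure D2:**
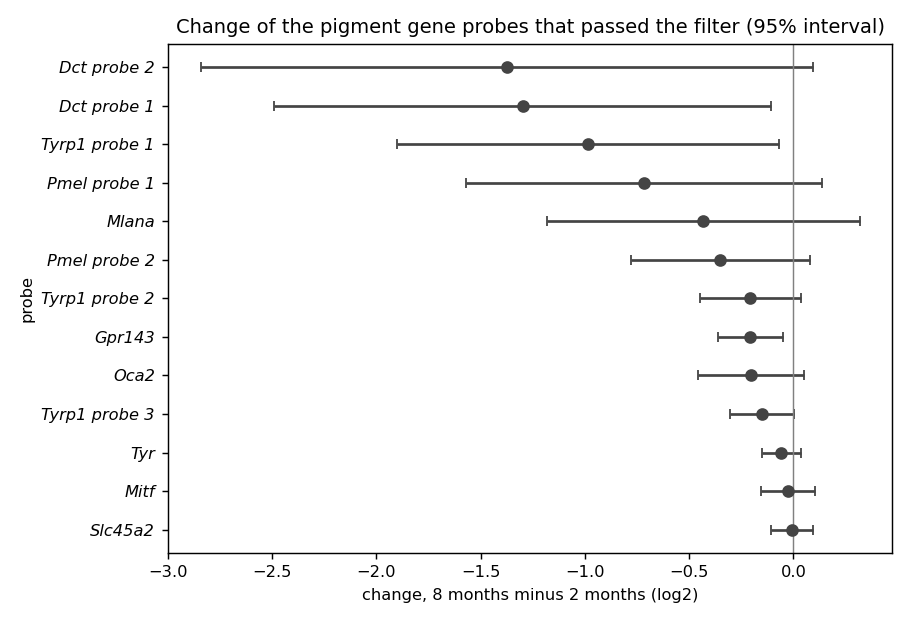
Change of each of the 13 tested pigment gene probes (vertical axis), 8 months minus 2 months on the log2 scale (horizontal axis). Points are limma estimates and bars are 95% intervals, and probe 1 is a gene's brightest. All points lie below 0, and 10 of the 13 intervals reach past 0.

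For Dct, Tyrp1, Pmel and Mlana the 8 month samples spanned less than the difference between ages and the 2 month samples more. For Dct the 8 month samples spanned 1.28 and the 2 month samples 1.84, against a change of −1.30. The spans at 8 and at 2 months were 0.64 and 1.54 for Tyrp1, 0.60 and 1.54 for Pmel, and 0.42 and 1.37 for Mlana. For Gpr143 they were 0.06 and 0.24 and for Tyr 0.03 and 0.04, against changes of −0.21 and −0.06. For Oca2 both spans, 0.38 and 0.27, exceeded the change of −0.21. Leaving out 2 month replicate 2 changed the estimate for Dct to −0.77 (adjusted p = 0.71 by limma), for Tyrp1 to −0.51, for Pmel to −0.34 and for Gpr143 to −0.14, so the signs stayed negative while most of the sizes shrank by more than 1.5 times. Leaving out 2 month replicate 1 moved them the other way, to −1.69 for Dct, −1.28 for Tyrp1, −1.11 for Pmel and −0.73 for Mlana.

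**Figure D3:**
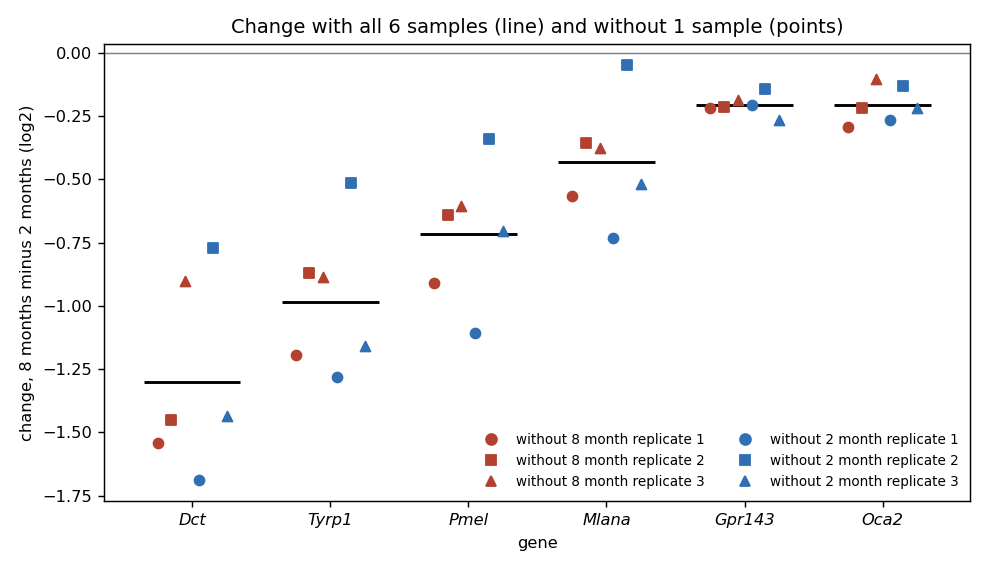
Change, 8 months minus 2 months on the log2 scale (vertical axis), for 6 pigment genes (horizontal axis) with all samples (black line) and with each sample left out in turn (points, red for 8 month and blue for 2 month samples). Without 2 month replicate 2 (blue square) the change of Dct is −0.77 and that of Mlana −0.05.

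The brighter genes of the group varied together from sample to sample. Of the 9 genes with a tested probe, 8 had 2 month replicate 2 as their highest sample, the exception being Slc45a2. Among all 12046 tested genes, 19.2% had that sample highest. Its lead over the next sample was only 0.0009 in Tyr and 0.02 in Mitf, both close to background. Pmel and Oca2 put the 6 samples in one order: 2 month replicates 2 and 3, then 8 month replicate 1, then 2 month replicate 1, then 8 month replicates 2 and 3. Tyrp1 differed from that order only in its last places. Among the 6 genes whose values spanned more than 0.3 (Dct, Tyrp1, Pmel, Mlana, Oca2 and Gpr143), all 15 pairs correlated positively over the 6 samples, with Pearson's r from 0.71 to 0.96 and Spearman's rho from 0.31 to 1. Taken as deviations from the mean of their age, the same 15 pairs had r from 0.50 to 0.98. With the 2 samples farthest from the median of the first gene of a pair left out, r ran from −0.07 to 0.97. Gpr143 was at −0.07 with Oca2, 0.06 with Pmel, 0.21 with Dct, 0.58 with Tyrp1 and 0.71 with Mlana. Pairs without Gpr143 kept r of 0.63 to 0.97. Part of the agreement, mainly that of Gpr143, thus rests on the samples left out. They included 2 month replicate 2 in each of these pairs, but its share alone was not measured. Tyr correlated with Gpr143 (r = 0.93, rho = 0.83) more than with Dct (r = 0.69, rho = 0.77), and Slc45a2 had r from −0.55 to 0.28 with the other 8. The points share arrays, normalization and pools, so these values are a description with no test.

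Pigment genes and genes of the pigment epithelium were set side by side in 2 month replicate 2, 8 month replicate 3 and 2 month replicate 1. In 2 month replicate 2, Dct lay 1.58 above the mean of the other 2 month samples, Tyrp1 1.41, Mlana 1.16 and Pmel 1.14. The dimmer members lay closer to the others, Oca2 at 0.23, Gpr143 at 0.18, Mitf at 0.08, Tyr at 0.02 and Slc45a2 at 0.007, and the median of the 9 was 0.23. In the same sample Rpe65, the isomerase of the visual cycle, lay 0.39 above the others, Lrat, which esterifies retinol, 0.45, Rdh5, a retinol dehydrogenase, 0.39, and Ttr, which carries thyroid hormone and retinol-binding protein, 0.08. The 17 tested genes of the pigment epithelium list ranged there from −0.18 to 0.61, with a median of 0.35. In 8 month replicate 3, relative to the mean of the other 8 month samples, Rdh5 was at −1.28, Rgr, an opsin of the pigment epithelium, at −1.10, Rpe65 at −1.02 and Dct at −1.19, while Tyrp1 was at −0.30, Pmel at −0.34 and Mlana at −0.16. The median there was −0.16 for the 9 pigment genes and −0.48 for the 17 pigment epithelium genes. The brighter pigment genes were also low in 2 month replicate 1 relative to the other 2 month samples, with Pmel at −1.17, Dct at −1.17, Mlana at −0.89 and Tyrp1 at −0.89, where the pigment epithelium list had a median of −0.06. These values in part restate the height of 2 month replicate 2, which is in that mean. Against 2 month replicate 3 alone, replicate 1 was closer. Dct was at 10.44 against 10.95, Tyrp1 at 8.03 against 8.27, Pmel at 7.47 against 8.28 and Mlana at 7.23 against 7.65. Tyrp1, Pmel and Mlana were below 7.5 in 8 month replicates 2 and 3. The difference between the gene groups was not tested.

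**Figure D4:**
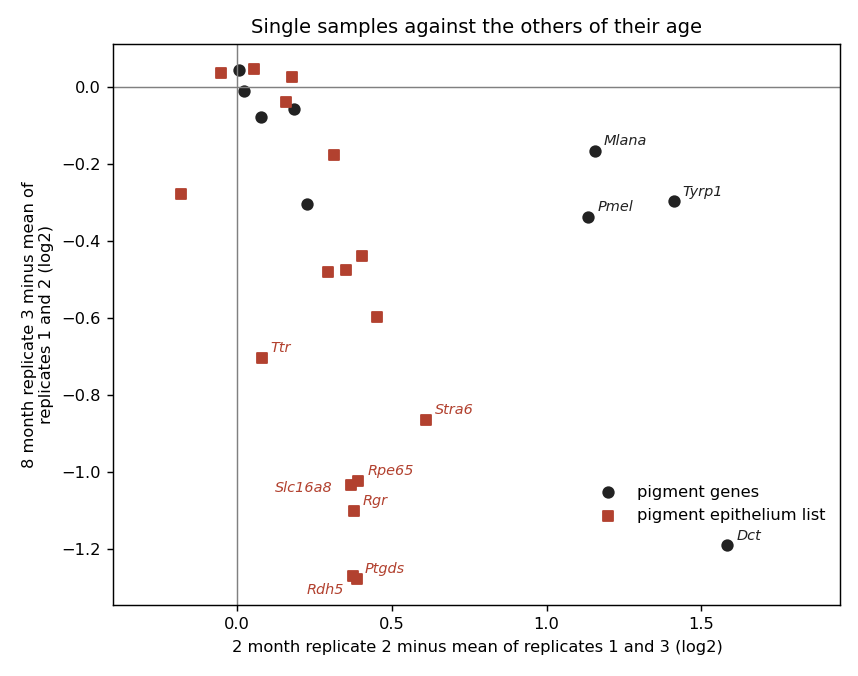
Each point is a gene, with 2 month replicate 2 minus the mean of 2 month replicates 1 and 3 on the horizontal axis and 8 month replicate 3 minus the mean of 8 month replicates 1 and 2 on the vertical axis, both log2. Pigment genes (black) reach furthest to the right, at 1.58 for Dct, and pigment epithelium genes (red) furthest down, at −1.28 for Rdh5.

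The pigment epithelium list as a whole had 17 tested genes of 23, 15 of them with changes below 0 and none called in either direction. Its median change was −0.21, against 0.0005 over all 12046 tested genes, and it became −0.07 without 8 month replicate 3, −0.39 without 8 month replicate 2, −0.32 without 8 month replicate 1 and −0.36 without 2 month replicate 3. The members with the smallest p were Trpm3, a cation channel (change −0.47, SE 0.164), Rdh5 (−0.80, SE 0.341) and Krt18, an epithelial keratin (−0.33, SE 0.147). Averaged over the list, 8 month samples deviated from the mean of all samples by −0.51 to 0.13 and 2 month samples by 0.002 to 0.31, while the 9 tested pigment genes deviated by −0.40 to −0.02 at 8 months and −0.10 to 0.65 at 2 months.

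The 5 tested markers of melanocytes all had changes below 0, with a median of −0.17, while 6000 of all 12046 tested genes lay below 0. Pax3, Mc1r, Mcoln3 and Erbb3 stayed below the filter, at 7.06 to 7.20 at 8 months and 7.07 to 7.23 at 2 months, and 5 of the 10 genes of that list were tested, none of them called. Gpnmb, a melanosome glycoprotein also made by phagocytes, had values of 9.11, 8.39 and 8.12 at 8 months against 8.69, 10.49 and 9.02 at 2 months, a change of −0.86 (SE 0.470). Ednrb, an endothelin receptor of melanocyte precursors that Müller glia also make, showed no overlap between ages, with a change of −0.61 (SE 0.116) and an adjusted p of 0.16 in limma. Kit, the receptor for stem cell factor, had one of −0.13 (SE 0.0799), and Sox10, a transcription factor of the neural crest, one of −0.17 (SE 0.141). Ptgds, which is also in the pigment epithelium list, had one of −0.14 (SE 0.358). Over the 5 tested genes, 8 month samples deviated from the mean of all samples by −0.48 to 0.05 and 2 month samples by −0.03 to 0.52. In 2 month replicate 2 all 5 lay above the mean of the other 2 month samples, with a median of 0.26. Of all 12046 tested genes, 5895 did so.

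Of the lists for tissues around the retina, all but the lens list were highest in 2 month replicate 2. In 2 month replicate 2 the 9 tested skeletal muscle genes of 13 lay on average 1.06 above the mean of all samples, against −0.36 and 0.19 at 2 months otherwise and −0.40 to −0.21 at 8 months. The 4 tested red blood cell genes of 8 lay 1.29 above it, against 0.22 and 0.33 at 2 months otherwise and −0.65 to −0.59 at 8 months. The 8 tested iris and ciliary epithelium genes of 11 lay 0.30 above the mean of all samples in 2 month replicate 2, against −0.10 and 0.03 at 2 months otherwise and −0.10 to −0.04 at 8 months. Relative to the other 2 month samples 6 of these 8 lay above and 2, Cp and Oaf, below, with a median of 0.19. The highest, Otx1, was at 7.47, 7.49 and 7.46 at 8 months and at 7.52, 8.88 and 7.56 at 2 months. Over the 6 tested genes of 8 for the stroma of choroid and sclera, 2 month replicate 2 lay 0.36 above the mean of all samples, against −0.12 and −0.07 at 2 months otherwise and −0.15 to 0.10 at 8 months, with Col1a1 and Col3a1 near the array median throughout. Lens genes (11 tested of 12) were not raised in that sample, at −0.002. Neural retina genes (9 tested of 12) were at 0.06, against 0.007 and 0.01 at 2 months otherwise and −0.06 to 0.003 at 8 months. That sample was thus their highest too, by little. It was also the highest for the lists of pigment epithelium, melanocyte, photoreceptor, melanosome membrane and pigment cell regulator genes. The lens list varied in other samples, at −0.07 and 0.44 in 2 month replicates 1 and 3. At 8 months it was at 0.23, −0.37 and −0.22 in replicates 1, 2 and 3. The 9 tested photoreceptor genes, mostly of cones, had a median change of −1.15, all below 0, and 2 of them fell past the threshold, Arr3, cone arrestin (−1.55, SE 0.126, adjusted p = 0.014 by limma), and Gnat2, cone transducin (−0.86, SE 0.0801, adjusted p = 0.027 by limma). Their mean deviation was −1.09 in 8 month replicate 3, against −0.47 and −0.42 at 8 months otherwise and 0.40 to 0.80 at 2 months. The part of these tissues and cells in the difference between ages was not tested.

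**Figure D5:**
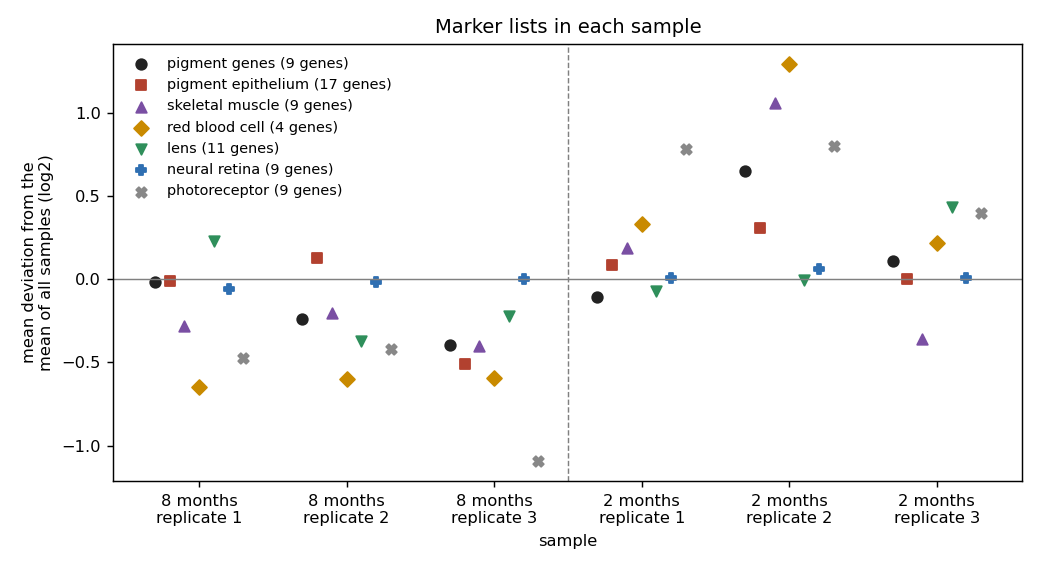
Mean deviation of each marker list from the mean of all 6 samples (vertical axis, log2) in every sample (horizontal axis), with the number of tested genes in the legend. Pigment, muscle and red blood cell genes peak in 2 month replicate 2, at 0.65, 1.06 and 1.29. Pigment epithelium and photoreceptor genes also peak there, at 0.31 and 0.80, the latter close to 0.78 in 2 month replicate 1. Pigment epithelium and photoreceptor genes are lowest in 8 month replicate 3, at −0.51 and −1.09. Pigment and muscle genes are also lowest there, each at −0.40.

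The wider machinery of the melanosome serves other lysosome-related organelles in most cells as well. Of 27 genes for melanosome formation and transport, 26 were tested, 12 with changes below 0 and 14 above, none was called, and the median change was 0.02. Those with the smallest p were Myrip, a linker of Rab27a to myosin (change −0.20, SE 0.0481), Hps6, a subunit of the BLOC-2 complex (0.21, SE 0.0544), and Ap1g1, a clathrin adaptor subunit (0.15, SE 0.0427). In 2 month replicate 2 these 26 genes had a median of 0.008 relative to the other 2 month samples, 14 above and 12 below. The highest were Rab38 at 0.38, Cd63 at 0.37 and Rab27a at 0.34. The lowest were Snapin at −0.39, Ap3b1 at −0.20 and Hps5 at −0.15. Of 13 genes of the melanosome membrane and its chemistry, all tested and none called, the median change was −0.02, with Slc24a4, a cation exchanger, at −0.14 (SE 0.0497), Gpnmb as above and Dstyk, a kinase, at 0.08 (SE 0.0525). In 2 month replicate 2 these 13 had a median of 0.02 relative to the other 2 month samples, with Gpnmb at 1.64 and Tspan10, a tetraspanin, at 0.37. Of 18 regulators of pigment cells 11 were tested and none called, with a median change of −0.01. Besides Ednrb, those with the smallest p were Tfap2a, a transcription factor that amacrine cells also express, at 0.14 (SE 0.0592), and Bhlhe40, a basic helix-loop-helix repressor, at 0.22 (SE 0.102). Otx2, the partner of Mitf in the pigment epithelium, which bipolar cells also make, lay at 11.61, 11.76 and 11.49 at 8 months against 11.60, 11.85 and 11.67 at 2 months, a change of −0.08 (SE 0.0870).

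Other genes whose values followed the 9 tested pigment genes most closely were sought among 670 tested genes with an SD of at least 0.2 over the 6 samples. The measure was Pearson's r with the mean of the standardised pigment gene values. Cldn1 came first (r = 0.99, rho = 1), followed by Gpnmb (0.98, rho = 0.83), Cldn2 (0.96, rho = 0.94), Gja1 (0.96, rho = 0.89), Kcne2 (0.96, rho = 1), Trf (0.95, rho = 0.83), Arhgdib (0.95, rho = 0.94) and Txnip (0.95, rho = 0.89). As deviations from the mean of their age, the r of these 8 ran from 0.90 to 0.99. Gja1 was at 9.56, 9.20 and 9.26 at 8 months against 10.03, 12.05 and 9.75 at 2 months. Its peak, like that of the pigment genes, was 2 month replicate 2. The 8 genes were picked by their r with a mean that is itself highest in that sample, at 1.40. A peak there and a high r within ages therefore follow largely from the choice.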

How the data were processed

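Each probe has 1 log2 value per sample, as deposited by the authors. No source used here names their software or background correction. Across arrays the values at each rank differ by at most 0.00307, as after quantile normalization, and the values do not show whether the log2 scale is plain or variance-stabilised. Groups come from the sample titles and gene symbols from the platform annotation, checked against RefSeq (GRCm38.p6), which changed 0 symbols. Probes above their array's median on at least 3 arrays entered limma 3.58.1 (R 4.3.3; lmFit, eBayes, no block), with Benjamini-Hochberg adjustment over 22458 probes and a threshold of 0.05. The script was tested on simulated data. Lists use each gene's brightest tested probe. The number of arrays limits the precision. The members and lists were chosen with earlier results of these data known. All member probes are reported, with the 3 genes of smallest p in the melanosome, regulator and pigment epithelium lists and the 8 genes of most similar pattern (clone names left out). Other genes were named after their values were seen. Alternatives were other normalizations, filters and variance models, array weights, 1 probe a gene, a replicate block and each sample left out.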

Additional observations from a re-analysis of the deposited data

How the results depend on the processing

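No pigment gene probe was called under any of the 16 alternatives, with smallest adjusted p-values from 0.147 to 0.679 (limma). Of 142 recomputed changes of the 9 tested pigment genes, 140 kept their sign, and the exceptions were Slc45a2, at 0.012 without 2 month replicate 1 and at 0.0094 without 8 month replicate 2, in a range of −0.027 to 0.012 when each sample was left out. Among all probes, 8 higher and 3 lower calls became 6 and 5 with no filter, 16 and 6 with a stricter filter, 67 and 74 with a trended, robust variance and 19 and 8 when only 1 probe a gene entered the fit and the adjustment. Leaving out 1 sample gave 3 to 13 higher and 0 to 27 lower. Of the list genes outside the group, 2 were called, the cone genes Arr3 and Gnat2, against 1 with no filter, 4 with the trended variance and 0 to 6 without 1 sample. The replicate block gave 13 lower and 5 list genes. Deviations of same-numbered samples correlated at 0.05, 0.13 and 0.16 over probes, each sample best with its own number, which is a hint from the data and not from the design, so the numbers were not taken to pair the samples. These are the numbers of the titles, which the descriptions of the 2 month samples do not share. Dim probes limit what can be said of Tyr, Mitf, Slc45a2 and Slc24a5, since signal near background compresses differences.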
